A study of Mus musculus with 4 samples.

Results

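The regions described here are stretches of mouse chromatin that carried H3K27ac, the acetylation of histone H3 at lysine 27, in both libraries, but over at least 2 times more base pairs (bp) in the peak list labelled control than in the list labelled BN1. They were found by merging the peaks of both lists on the numbered chromosomes, X and Y and by comparing the bp that each list's peaks covered in a merged region. Of 34906 merged regions, 11109 held peaks of both lists, and 2008 of these met the rule (18.1% of the shared regions). The remaining shared regions were 565 that were at least 2 times longer in the list labelled BN1 (5.09%) and 8536 of balanced length. The regions were thus chosen by their covered lengths in the 2 lists, so the lengths are given as a description. There was 1 ChIP library per group, so nothing below was tested against a replicate error, and each difference describes these 2 libraries.

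The study profiled H3K27ac by chromatin immunoprecipitation and sequencing (fanChIP in the labels) in CD45.2+ bone marrow cells of C57BL/6 mice. The BN1 group carried BRD9-NUTM1 and its genotype is given as cKit(+) BRD9-NUTM1, and the control group is given as cKit(+) with no fusion named. The term BN1 peaks below means peaks of the list labelled BN1, and control peaks those of the list labelled control. BRD9-NUTM1 is a leukaemia fusion that joins BRD9, a bromodomain subunit of a BAF remodelling complex, to NUTM1, a protein that recruits the acetyltransferase p300. The sources used here give no age, vector or promoter and do not say whether animals were pooled, and the extract protocol names BN1 cells for every sample. Inside the lists, the peaks under the BN1 title carry the name BM and those under the control title the name BRNU, which is the reverse of what the titles would lead one to expect. Groups follow the titles, so each direction holds for the labels alone.

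The list labelled BN1 held 19140 peaks on these chromosomes covering 19.1 Mb, and the list labelled control held 28315 covering 31.0 Mb. Sequencing depth is unknown because no read counts are given, and its part in the lengths was not tested. The labelled cell type was checked against marker genes, counting bp within 1 kb of each gene. Neither list had a peak at Kit, which encodes the receptor named in the genotype labels. Of 6 progenitor markers, 1 had a BN1 peak and 4 a control peak. All 6 neutrophil and 5 of 6 B lymphoid markers had a BN1 peak, against 2 neutrophil and 1 B lymphoid markers with a control peak. Of 8 monocyte and macrophage markers, 3 had a BN1 peak and 8 a control peak.

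H3K27ac is laid down by p300 and CBP at active promoters and enhancers, and bromodomain proteins read it. At an active gene the mark usually sits on the nucleosomes next to the start site and is missing from the start itself, where nucleosomes are displaced. At genes of cell identity and at strongly transcribed genes it can spread over many kilobases into the gene.

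The start windows of 5 genes are shown as examples and do not represent all regions longer in control. They are RefSeq windows of GRCm38.p6 from 250 bases before to 50 bases after a gene start. Ctsd, Ctsl, Plin2 and Abca1 are the lysosome and lipid genes of the lists below whose start lay in a region longer in control and whose window held CACGTG, the palindromic E-box read by MYC, USF and the MiT/TFE factors that control lysosome genes. Plxnb2 is shown as a start over which the list labelled control alone had a peak. Capitals mark CACGTG, and each sequence runs 5′ to 3′ on the gene's own strand.
Ctsd (chr7:142387778-142388077, strand minus): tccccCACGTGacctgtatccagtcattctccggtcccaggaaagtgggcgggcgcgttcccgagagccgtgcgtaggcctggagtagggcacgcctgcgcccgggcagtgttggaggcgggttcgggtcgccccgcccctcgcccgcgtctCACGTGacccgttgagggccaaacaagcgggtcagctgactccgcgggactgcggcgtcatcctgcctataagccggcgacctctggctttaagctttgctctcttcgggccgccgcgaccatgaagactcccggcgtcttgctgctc
Ctsl (chr13:64370471-64370770, strand minus): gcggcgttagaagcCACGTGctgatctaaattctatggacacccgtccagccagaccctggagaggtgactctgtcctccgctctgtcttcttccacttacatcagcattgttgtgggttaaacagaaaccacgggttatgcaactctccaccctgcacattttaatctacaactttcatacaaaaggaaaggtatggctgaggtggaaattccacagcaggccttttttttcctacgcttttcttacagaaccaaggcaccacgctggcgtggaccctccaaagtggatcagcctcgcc
Plin2 (chr4:86670010-86670309, strand minus): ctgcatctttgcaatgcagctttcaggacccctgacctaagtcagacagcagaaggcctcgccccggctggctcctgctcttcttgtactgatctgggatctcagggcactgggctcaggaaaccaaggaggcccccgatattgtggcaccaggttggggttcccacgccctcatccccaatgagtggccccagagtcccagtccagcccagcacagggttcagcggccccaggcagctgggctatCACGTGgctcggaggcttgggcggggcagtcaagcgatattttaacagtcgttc
Abca1 (chr4:53159846-53160145, strand minus): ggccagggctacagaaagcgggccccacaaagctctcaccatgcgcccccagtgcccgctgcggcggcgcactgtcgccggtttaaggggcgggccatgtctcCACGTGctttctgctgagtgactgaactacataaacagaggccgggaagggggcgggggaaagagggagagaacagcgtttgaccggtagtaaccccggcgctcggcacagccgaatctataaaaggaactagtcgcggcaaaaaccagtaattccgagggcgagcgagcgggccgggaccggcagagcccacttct
Plxnb2 (chr15:89180739-89181038, strand minus): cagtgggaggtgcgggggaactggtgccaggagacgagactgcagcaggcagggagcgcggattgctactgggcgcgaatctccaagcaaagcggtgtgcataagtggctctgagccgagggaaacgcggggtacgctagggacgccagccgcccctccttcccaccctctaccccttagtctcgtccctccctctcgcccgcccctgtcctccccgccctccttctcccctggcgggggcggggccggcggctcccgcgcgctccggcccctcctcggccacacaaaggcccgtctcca
Peaks of the list labelled BN1 covered all 300 bases at Ctsd and Plin2, 292 at Ctsl, 50 at Abca1 and none at Plxnb2. Peaks of the list labelled control covered 225 bases at Ctsd, where 2 control peaks left a gap, and all 300 at the other 4. The Ctsd window held 2 copies of CACGTG and those of Ctsl, Plin2 and Abca1 held 1 each.

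Over all 2008 regions, BN1 peaks covered 1.34 Mb and control peaks 4.48 Mb, or 29.8% as much in BN1 as in control. That was 6.99% of the whole covered length of the list labelled BN1 and 14.5% of that of the list labelled control. The median region had 509 bp of BN1 peaks (quartiles 331 and 804) and 1758 bp of control peaks (quartiles 1167 and 2710). In balanced regions the medians were 1206 bp of BN1 peaks and 1339 bp of control peaks. The regions longer in control were thus both shorter than balanced ones on the BN1 side and longer than balanced ones on the control side.

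**Figure D1:**
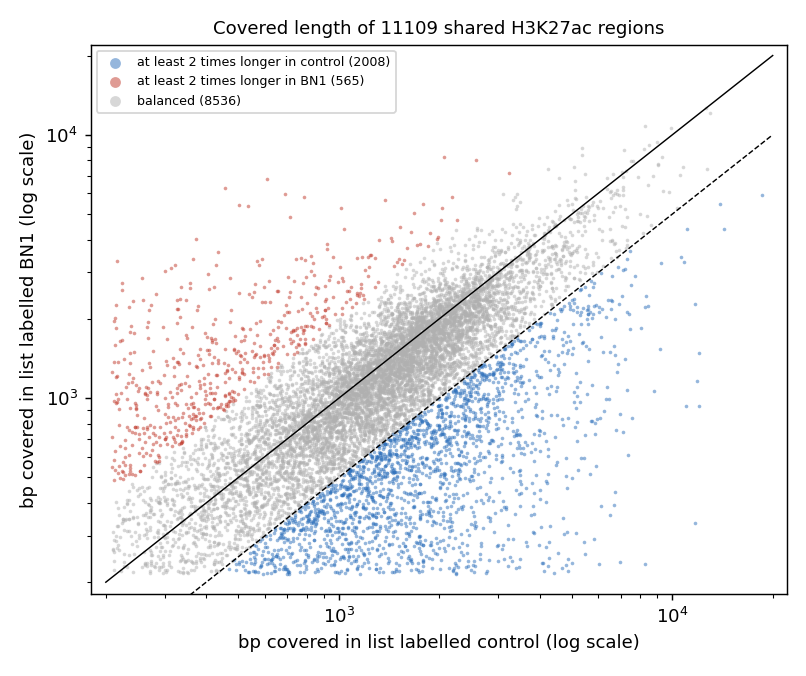
Covered length in bp of each of the 11109 shared regions, in the list labelled control (x axis, log scale) and the list labelled BN1 (y axis, log scale). Blue points are the 2008 regions longer in control, red the 565 longer in BN1 and grey the 8536 balanced; the solid line marks equal lengths and the dashed line the ratio of 2, and the blue points spread down to 2.83% of the control length with no gap at the dashed line.

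The BN1 length, as a percentage of the control length, ran from 2.83% to 50% with a median of 34.1%. It was under 10% in 77 regions, under 20% in 378 and at least 40% in 668. The cloud had no gap at the threshold. Just inside it, with exactly 50%, lay a region 9967 bp from Capn11 with 810 bp in BN1 and 1620 bp in control, one at Mpp7 with 808 and 1616 bp, and one 110171 bp from Hjv with 656 and 1312 bp. Just outside lay regions at Chst11 (994 bp in BN1 and 1986 bp in control), 9877 bp from Nlgn3 (1229 and 2455 bp) and at Septin11 (401 and 801 bp).

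In most of these regions a single control peak enclosed a single narrower BN1 peak. The control side was 1 peak in 1997 of the 2008 regions. The BN1 side was broken into 2 or more peaks in 230 regions (11.5%, exact 95% interval 10.1 to 12.9), against 504 balanced regions (5.90%, 5.41 to 6.43). In regions longer in BN1 it was the control side that was broken in 44 (7.79%, 5.72 to 10.3), against 5.52% of balanced regions (5.04 to 6.02). The last 2 intervals overlap, so these counts do not settle whether a broken shorter side is particular to regions longer in control. BN1 peaks lay wholly inside control peaks in 1800 of the regions longer in control (89.6%), against 37.7% of balanced regions. In the regions longer in control, 98.3% of the BN1 bp were also covered by control peaks. The rule asks for a longer control side, so such nesting and overhang follow in large part by construction and are given as a description. Among 1604 regions longer in control with 1 peak of each list and the BN1 peak wholly inside, the control peak ran past it by at least 100 bp on both sides in 1259 (78.5%). The same held in 35.3% of 3025 such balanced regions. In the 1604 regions the median overhang was 285 bp on the shorter side and 815 bp on the longer side.

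The tallest points of both lists lay close together. The median distance between the summit of the tallest BN1 peak and that of the tallest control peak was 97 bp (quartiles 36 and 338), against 73 bp in balanced regions (quartiles 27 and 223). A BN1 peak covered the tallest control summit in 1554 regions (77.4%), against 97.4% of balanced regions, where BN1 peaks are longer.

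The 15 regions with the largest difference in bp included 3 at genes of the lysosome list described below, Ctsd, Ctsb and Hexa. At Ctsd, which encodes the aspartic protease cathepsin D, the merged region ran over chromosome 7, 142381728 to 142400517 (mm10), over the gene start, part of the gene and the sequence upstream of it. It held 6 BN1 peaks with 5899 bp in all and 2 control peaks with 18559 bp. The tallest BN1 peak, 1577 bp long, spanned the gap between the control peaks just upstream of the gene start. At Ctsb (cathepsin B; chromosome 14, 63122209 to 63134248), 2 BN1 peaks covered 933 bp, and 1 control peak covered 12040 bp. Hexa, the alpha subunit of beta-hexosaminidase, lay in a region of chromosome 9 (59536843 to 59545654) that also touches Tmem202, with 1061 bp in BN1 and 8812 bp in control.

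Gpr137b, Tcirg1 and Ppt2, also among the 15, are not in that list. At Gpr137b, a lysosomal membrane protein, BN1 peaks covered 1163 bp and the control peak 11851 bp. A region over Tcirg1, the a3 subunit of the vacuolar proton pump, and its neighbours Ndufs8 and Aldh3b1 had 2287 bp in BN1 and 11663 bp in control. Ppt2, a lysosomal thioesterase, had 608 bp in BN1 and 7379 bp in control. In each the control side was a single peak, and the BN1 side was 2 or 3 pieces.

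**Figure D2:**
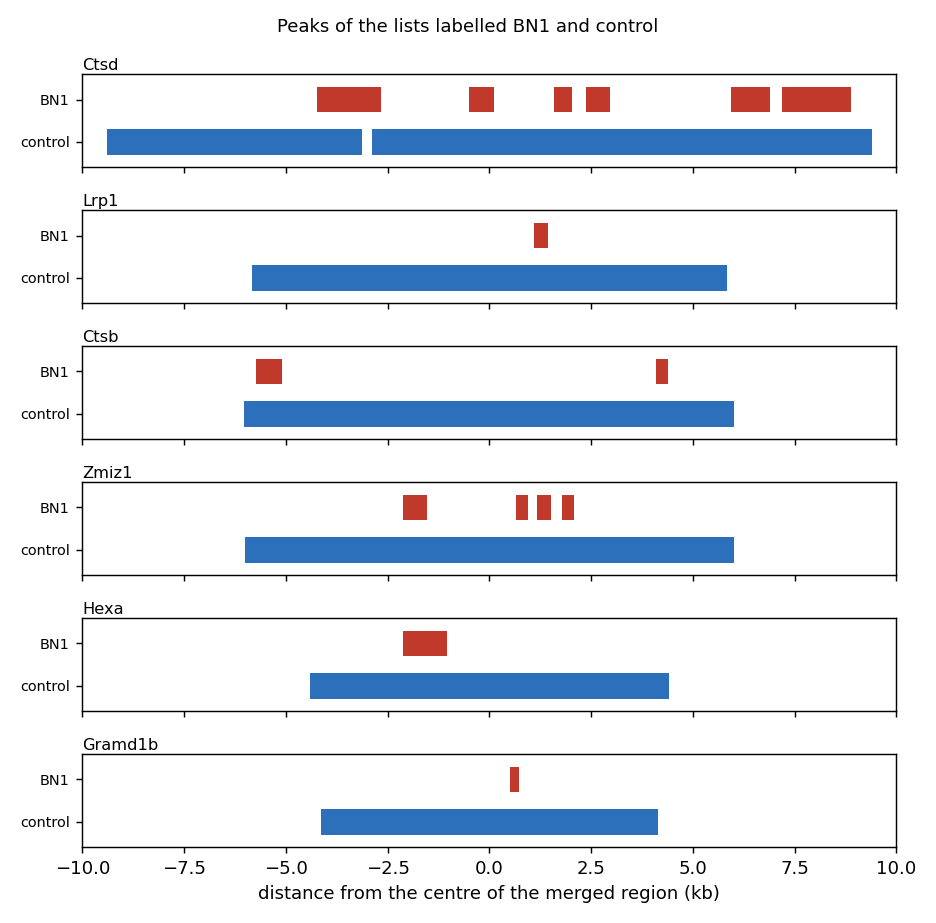
Peaks of the list labelled BN1 (red, upper row) and the list labelled control (blue, lower row) in 6 merged regions, by distance in kb from the centre of the region. Each BN1 row shows short pieces, from 235 bp at Gramd1b to 1707 bp at Ctsd, within or across control peaks of 6275 to 12284 bp, and the regions of Lrp1, Hexa and Gramd1b hold 1 BN1 peak each.

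Other regions of the 15 touched genes of lipid handling, the cytoskeleton and signalling. Inside Lrp1, an endocytic receptor for lipoproteins (chromosome 10, 127589554 to 127601217), a BN1 peak of 335 bp lay within a control peak of 11664 bp. Inside Gramd1b, which moves sterols between membranes, a BN1 peak of 235 bp lay within a control peak of 8291 bp, the lowest percentage of all (2.83%). At Plec, a cytoskeletal linker, BN1 peaks covered 4388 bp and the control peak 14289 bp, and at Myh9, the heavy chain of non-muscle myosin IIA, they covered 3428 and 10624 bp. Rhbdf2, a rhomboid-like protein needed for release of TNF, had 3285 bp in BN1 and 10873 bp in control. Trim8 had 5471 bp in BN1 and 13865 bp in control, and Cyb5r3, a cytochrome b5 reductase, had 1540 and 9167 bp. Zmiz1, a transcriptional coregulator, and a region between genes 30384 bp from Ero1b completed the group. Zmiz1 had 1481 bp in BN1 and 12025 bp in control in this region, and the region beyond Ero1b had 934 and 10994 bp.

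Among 229 regions with at least 4000 bp of control length, the 10 with the smallest BN1 percentage all had a BN1 side of 1 peak of 217 to 335 bp. The shortest peak of the list labelled BN1 was 215 bp long, so these peaks were near the lower limit of length in that list. Besides Gramd1b and Lrp1 they lay at Lmna, the gene of lamins A and C (235 bp in BN1 and 6047 bp in control), Frmd4b (257 and 5489 bp), Vps13d, a lipid transfer protein (236 and 5003 bp), Irak2, a kinase downstream of Toll-like receptors (232 and 4798 bp) and Plxnd1, a semaphorin receptor (217 and 4423 bp). The other 3 lay between genes. One of them, 23044 bp from Cebpb, which encodes a C/EBP factor of macrophages and granulocytes, had 220 bp in BN1 and 4874 bp in control. The one 7794 bp from Tbc1d22a had 239 bp in BN1 and 6967 bp in control, and the one 11658 bp from Iqgap1 had 227 and 4653 bp.

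Most genes touched held a single region longer in control. Of 9322 protein-coding genes with a shared region within 1 kb, 1655 had at least 1 region longer in control (17.8%) and 444 at least 1 longer in BN1 (4.76%). Of the 1655, 1504 had 1 such region, 126 had 2 and 19 had 3. Cux1, Pik3ap1, Foxp1, Snx29 and Lamc1 had 4 each, and Zmiz1 had 6, with 6229 bp in BN1 and 32381 bp in control in all. These 6 genes were singled out after their counts were seen, and all are over 100 kb long. At Lmna, whose gene spans 28785 bp, 3 regions held 2219 bp in BN1 and 16504 bp in control. When the 9322 genes were split by gene length into 4 groups of equal size, 22.0% of the longest group had a region longer in control, against 15.7% to 16.9% in the other 3 groups.

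Position relative to genes was not used by the rule. Of the 2008 regions, 1015 touched a protein-coding gene's end or lay within 1000 bp of it (50.5%, exact interval 48.3 to 52.8), against 72.1% of balanced regions (71.1 to 73.0). A further 587 (29.2%) lay inside a gene away from its ends, against 17.0% of balanced regions, and 406 (20.2%) lay between genes, against 10.9%. Seen from the other side, 13.7% of all shared regions at gene ends were longer in control, against 26.7% of those inside genes and 27.4% of those between genes. The intervals cover counting error only, and neighbouring regions are not independent. The 565 regions longer in BN1 lay at a gene end in 46.4% of cases, so a lower share at gene ends was not particular to regions longer in control.

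Strand was known from RefSeq starts for 17492 of 21887 genes. None of these starts lay on chromosome 18, so its 46 regions longer in control are outside all counts by strand, start or start window. Of 838 regions longer in control at an end of such a gene, 694 (82.8%) lay at the start alone, 49 (5.85%) at the far end alone and 95 (11.3%) at both kinds of end. In balanced regions 88.5% of 5167 lay at the start alone and 2.67% at the far end alone.

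Of the regions longer in control, 785 held a RefSeq start, and 741 of these held starts of 1 strand only. BN1 peaks covered the start in 409 (55.2%, 51.5 to 58.8) and control peaks in 734 (99.1%, 98.1 to 99.6). In balanced regions BN1 peaks covered 91.9% of 4418 starts and control peaks 94.0%. At 150 bp downstream, where coverage was highest, BN1 peaks were present in 83.0% and control peaks in 99.7% of the 741 regions. More than 50% of these regions had a BN1 peak only from the start to 500 bp downstream, against 600 bp upstream to 1100 bp downstream for control peaks. The 174 regions longer in BN1 showed the mirrored pattern. BN1 peaks covered the start in 95.4% of them and control peaks in 40.2%, and more than 50% had a control peak only from the start to 400 bp downstream. Placement just downstream of the start was therefore shared by the shorter side of both classes.

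The difference was unequal on the sides of the start. Upstream, the mean covered length was 197 bp in BN1 and 805 bp in control, or 24.4% as much. Downstream it was 545 bp in BN1 and 1502 bp in control, or 36.3% as much. In bp the larger part of the extra control length lay downstream, 957 bp on average against 608 bp upstream. Of the 741 regions, 466 (62.9%) had more of it downstream. Of the whole control length, 65.1% lay downstream in regions longer in control and 64.0% in balanced regions. A downstream lean was thus not particular to regions longer in control. In balanced regions BN1 lengths were 87.8% of control lengths upstream and 91.5% downstream. In regions longer in BN1, the mean upstream length was 578 bp in BN1 and 169 bp in control. Their mean downstream length was 1193 bp in BN1 and 423 bp in control. In 112 of these 174 regions more of the extra BN1 length lay downstream.

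**Figure D3:**
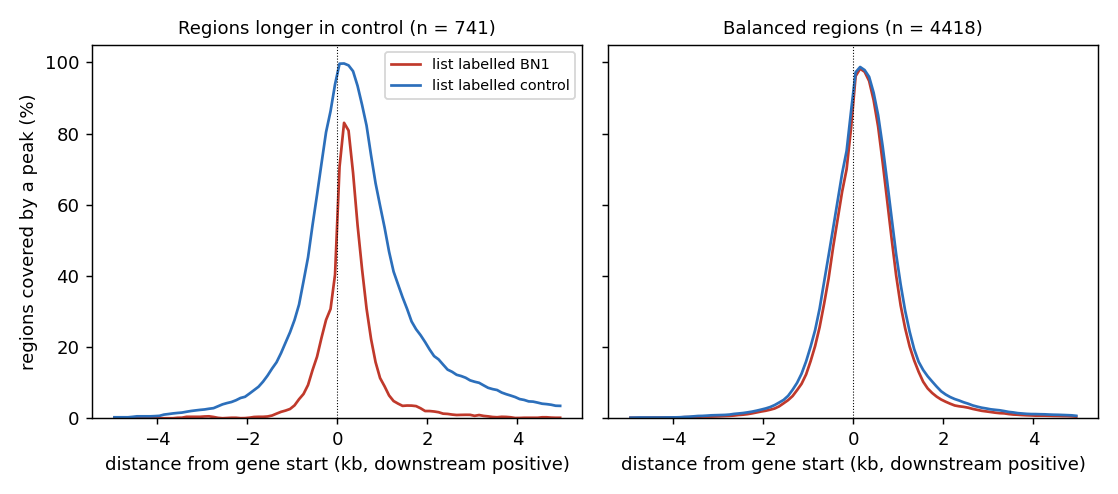
Percentage of regions covered by a peak in 100 bp steps within 5 kb of a gene start (x axis in kb, downstream positive), for 741 regions longer in control (left) and 4418 balanced regions (right), in the list labelled BN1 (red) and the list labelled control (blue). In the left panel the BN1 curve reaches 83.0% at 150 bp downstream and drops steeply at the start, while the control curve stays above 50% from 600 bp upstream to 1100 bp downstream; in the right panel the curves nearly coincide.

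Peak height tells the sides apart as well. Each peak carries the authors' fold enrichment, a ratio at its summit that is compared here only with other peaks of the same list. In the list labelled BN1 the tallest peak of a region had a median fold enrichment of 5.46 (quartiles 4.12 and 8.04) in regions longer in control, against 12.3 (7.22 and 21.9) in balanced ones. In the list labelled control the medians were 11.7 in regions longer in control (8.10 and 16.9) and 11.7 in balanced regions (7.52 and 18.2). As ranks within a list, the median region longer in control stood at percentile 38.4 of all BN1 peaks and at percentile 76.2 of all control peaks. Balanced regions stood at 74.1 in BN1 and 76.2 in control. On the control side these were thus regions of ordinary height for shared chromatin, and on the BN1 side they were low. Height comes from the same contrast as the rule and is given as a description.

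Shared regions were also split into 3 groups by control height. In the tallest group the BN1 median was 7.43 in 642 regions longer in control, against 23.1 in 3033 balanced ones. In the lowest group it was 4.44 in 560 regions longer in control and 6.70 in 2690 balanced ones.

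**Figure D4:**
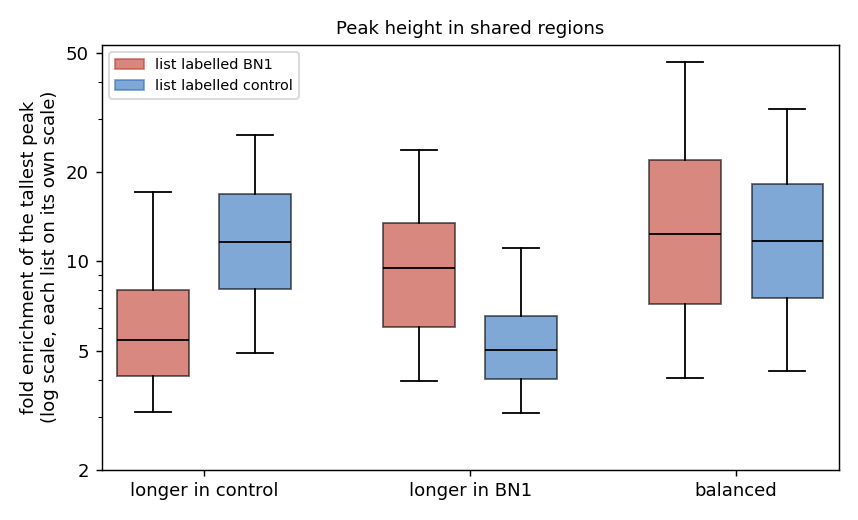
Fold enrichment of the tallest peak per region (y axis, log scale, each list on its own scale) in the list labelled BN1 (red) and the list labelled control (blue), for regions longer in control, longer in BN1 and balanced. Boxes show quartiles and median and whiskers the 5th and 95th percentiles; in regions longer in control the BN1 median is 5.46 and the control median 11.7.

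Some regions longer in control were tall in the list labelled BN1. Regions at Rfx1, a factor of the winged-helix family, and Phf13, a chromatin reader, had the tallest BN1 peaks, with fold enrichments of 80.7 and 72.2. They were 2124 bp long in BN1 and 5170 bp in control at Rfx1, and 1077 and 2224 bp at Phf13. Bcl6, a repressor of germinal centre B cells and macrophages, was among the 5 tallest of the 2008 on both sides (65.4 in BN1 and 50.3 in control). It had 3135 bp in BN1 and 6873 bp in control. Coq7, with Tmc7, and Sqstm1, the autophagy receptor p62, completed the BN1 group with 53.3 and 45.0. Among the same 2008, the tallest control peaks lay at Mdfic (66.8), Armh3 (60.3), Txn1, the redox protein thioredoxin (58.8), and 8088 bp from Plekho2 (52.6), beside Bcl6. The Mdfic region had 790 bp in BN1 and 2591 bp in control.

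Regions longer in control also lay beside regions found in the control list alone. Within 10 kb, 54.4% of them (52.2 to 56.6) had a control-only region and 13.8% (12.4 to 15.4) a BN1-only region. Balanced regions had a control-only region nearby in 33.7% and a BN1-only region in 18.4%. At gene ends the control-only share was 45.4% for regions longer in control, against 28.7% for balanced ones, and inside genes it was 65.8% against 49.5%. Another region longer in control lay within 10 kb of 283 of them (14.1%), against 6.79% of balanced regions. Regions longer in BN1 showed the mirrored picture, with a BN1-only region near 46.2% and a control-only region near 24.4%.

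The genes touched were read against 31 gene lists chosen with earlier results of these data known, so a list's count is no independent evidence of its direction. A gene was counted where a region longer in control lay within 1 kb of it, out of the genes of the list with any shared region, and is set against the 17.8% of all such genes. Each gene's BN1 length over all its shared regions was also taken as a percentage of its control length, with a median of 86.6% over the 9322 genes. For genes of the lists, the bp below are those of regions longer in control alone, unless the whole gene is named. Whole gene values include 1 kb on each side. Of the regions longer in control, 220 lay within 1 kb of 2 or more genes, so a region can count for a listed gene and its neighbours. Each library pools many cells, so fewer cells of a type and less acetylation per cell cannot be told apart. The labels give cKit(+) in the genotype of both groups, and the cell makeup of the libraries was not tested.

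Of 17 monocyte and macrophage genes with a shared region, 12 had a region longer in control and 1 a region longer in BN1, and the median BN1 percentage was 58.2%. C5ar1, the receptor for complement C5a, had 2127 bp in BN1 and 7315 bp in control in such regions. Plxnb2, a semaphorin receptor, had 285 and 5442 bp, Tnfaip2 had 2701 and 7515 bp, and Clec4d, a C-type lectin, had 1278 and 5946 bp. Csf1r, which encodes the M-CSF receptor, had a single region (chromosome 18, 61104960 to 61109754) with 591 bp in 2 BN1 peaks and 4795 bp in 1 control peak. The others were Lgals3, Mpeg1, Emilin2, Cd68, Ly86, Plaur and Mrc1. Over the whole gene Ly86 had 2068 bp in BN1 and 1795 bp in control, and Mrc1 961 and 998 bp. The rest of the genes named had more in control over the whole gene. The region of Cd68 also lay at its neighbour Eif4a1. The 8 monocyte and macrophage markers named above had 5505 bp in BN1 and 24836 bp in control in all, with Cd14, Ctss, Cx3cr1, Fcgr1 and Adgre1 at 0 in BN1. Their part in the result was not tested. With lengths taken as shares of each list's covered length, 5 of 17 had such a region against 7.0% of all genes, and with a cutoff of 10 on the −log10 q it was 4 of 11 against 13.2%. At a cutoff of 5 it was 7 of 14, against 15.8%, and at gene ends alone it was 8 of 15, against 14.3% of all genes with a shared region at an end. The order of the lists compared changed with the setting. The cutoffs, the peak lists of equal length and the shares of covered length were run for 3 gene lists alone. These were the monocyte and macrophage, lysosome and lipid handling lists. Gene ends were run for all lists. Lysosome genes stood higher at a cutoff of 10, with 9 of 18. Lipid handling genes stood higher as shares of covered length, with 4 of 13, and with peak lists of equal length. In the latter setting they had 8 of 12, monocyte and macrophage genes 10 of 16, and all genes 18.0%. Toll-like and pattern receptors stood higher at gene ends, with 4 of 7.

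Of 19 lysosome genes with a shared region, 9 had one longer in control, none had one longer in BN1, and the median BN1 percentage was 59.1%. Besides Ctsd, Ctsb and Hexa they included Npc2, which binds cholesterol in the lysosome, with 1932 bp in BN1 and 6584 bp in control over 3 regions, and its partner Npc1, with 895 and 4747 bp. Grn, the gene of progranulin, had 2180 bp in BN1 and 6141 bp in control. Tfe3, one of the MiT/TFE factors of lysosome biogenesis, had 1556 and 3564 bp, Ctsl (cathepsin L) 677 and 2528 bp, and Lipa, the lysosomal acid lipase, 460 and 1287 bp. The remaining 10 had balanced regions alone. All 9 had such a region within 1000 bp of a gene end, where the share over all genes with a shared region at an end was 14.3%. As shares of covered length it was 5 of 19, against 7.0%.

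Lipid handling genes had a region longer in control in 8 of 13 cases and 1 longer in BN1, with a median of 64.5%. Besides Lrp1 these were Plin2, a lipid droplet coat protein (1347 bp in BN1 and 6882 bp in control), Abca1, the cholesterol efflux pump (948 and 4400 bp), and Lpcat2, a lysophospholipid acyltransferase (1813 and 4352 bp). The sterol factors Srebf1 (880 and 2711 bp) and Nr1h3, which encodes the receptor LXRα (821 and 1774 bp), were also among them, with Abcg1 and Acsl1. Over the whole gene Acsl1 had 3650 bp in BN1 and 2733 bp in control, and the rest of these genes had more in control. At gene ends the count was 5 of 11, against 14.3% of all genes with a shared region at an end. As shares of covered length it was 4 of 13, against 7.0% of all genes. With −log10 q cutoffs of 5 and 10 it was 5 of 11 and 3 of 10, against 15.8% and 13.2%.

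**Figure D5:**
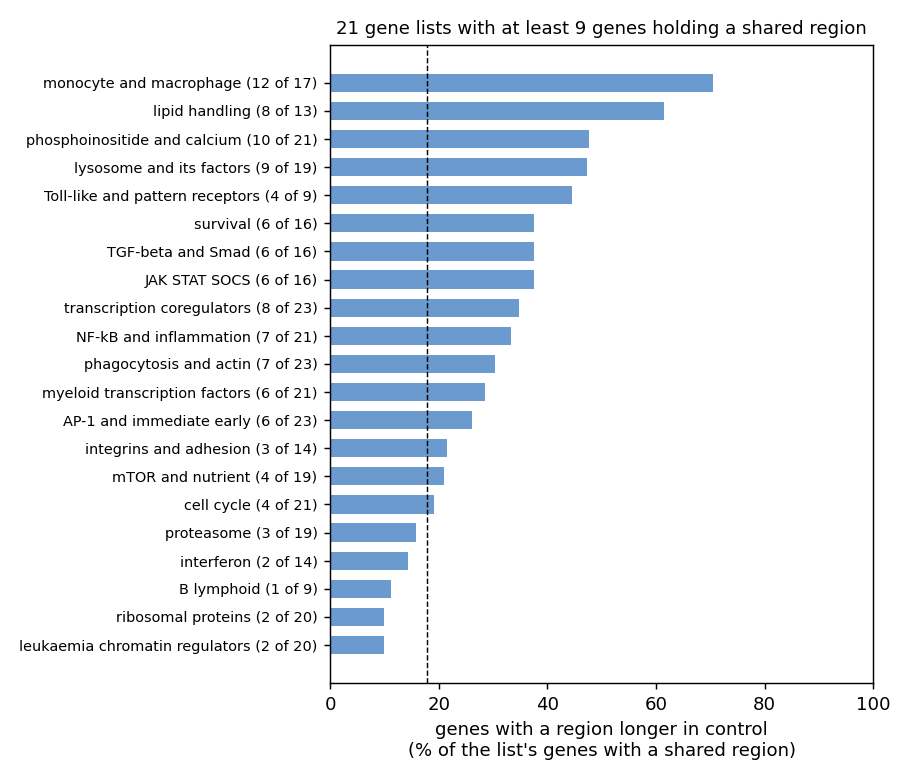
Percentage of each list's genes with a shared region that also had a region longer in control (bars), for 21 lists with at least 9 such genes, with counts beside the names. The dashed line marks 17.8%, the value over all 9322 protein-coding genes with a shared region; in this setting monocyte and macrophage genes stand highest with 12 of 17 and ribosomal protein genes and leukaemia chromatin regulators lowest with 2 of 20 each.

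In the phosphoinositide and calcium list 10 of 21 genes had a region longer in control (median 71.6%), in a list whose median gene length was 87457 bp, against 23290.5 bp over all genes with a shared region. At gene ends alone it was 5 of 18, against 14.3% of all genes with a shared region at an end. Pik3ap1, an adaptor of PI3-kinase, had 2799 bp in BN1 and 8837 bp in control over 4 regions, and Pik3cb, a catalytic subunit, 735 and 4122 bp. Nfatc1 had 736 and 3400 bp and Prkcd, protein kinase C delta, 483 and 2473 bp. Of Toll-like and pattern receptors, 4 of 9 had one (median 65.6%). Tlr4, the lipopolysaccharide receptor, had 391 bp in BN1 and 3820 bp in control, its partner Ly96 1299 and 2625 bp, the adaptor Ticam1 687 and 2103 bp, and the inflammasome sensor Nlrp3 2787 and 5707 bp.

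The JAK, STAT and SOCS list, the TGF-beta list and the survival list each had 6 of 16. Ptpn6, the phosphatase SHP-1, had 1831 bp in BN1 and 5368 bp in control, and Socs3, an inhibitor of cytokine signalling, 830 and 3024 bp. Of the Ptpn6 lengths, 1347 bp in BN1 and 3105 bp in control lay in a region that also touched Grcc10 and Atn1. Ski, a Smad corepressor, had 2409 and 7317 bp, and Id1 360 and 1865 bp. Cflar, an inhibitor of caspase-8, had 1025 and 6445 bp, and Bcl2l1, which encodes BCL-XL, 1285 and 4551 bp. Bcl2a1b, with 219 and 2550 bp, has near-identical copies, so its reads may not all be its own. Smad3 held a region of each kind, with 349 bp in BN1 and 1746 bp in control in the one longer in control but 11449 and 4010 bp over the whole gene.

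NF-kB and inflammation genes had 7 of 21 (median 70.5%), among them Zc3h12a, an RNase that degrades cytokine mRNAs (2096 bp in BN1 and 5570 bp in control), Nfkbiz (2294 and 4902 bp), Cxcl2, a neutrophil chemokine (576 and 3095 bp), and Il6ra (1271 and 3390 bp). Immediate early genes had 6 of 23, among them Klf6 (3614 and 7470 bp), Jun (2244 and 4918 bp), Fosb (588 and 2950 bp) and Atf3 (418 and 2284 bp). Interferon genes had 2 of 14, Irf5 (2359 and 4986 bp) and Irf2bp2 (681 and 2153 bp). Over the whole gene Irf2bp2 had 6859 bp in BN1 and 7194 bp in control, and Irf5 had 2359 and 4986 bp.

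Of the cytoskeletal lists, phagocytosis and actin had 7 of 23, with Lsp1 (2128 bp in BN1 and 5656 bp in control), Wasf2, a WAVE subunit (687 and 4175 bp), Myo1f (1870 and 4700 bp) and Arpc2 (983 and 3720 bp) at the head. At gene ends alone the count was 2 of 23 (8.70%), below the 14.3% of all genes with a shared region at an end. Integrins had 3 of 14, namely Itgb2, the beta chain of leukocyte integrins (1754 and 5239 bp), Itga5 (1162 and 3375 bp) and the adaptor Tln1 (3106 and 7232 bp).

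Among nuclear factors, coregulators had 8 of 23 and myeloid transcription factors 6 of 21. The BAF subunit Arid1a had 1573 bp in BN1 and 5319 bp in control, and its paralogue Arid1b had 853 and 3628 bp. Over the whole gene Arid1b had 11217 bp in BN1 and 11566 bp in control, and Arid1a 4999 and 9288 bp. Maf, a macrophage factor, had 734 and 3843 bp, Creb5 765 and 3427 bp, Runx1 1473 and 3292 bp, and Rara, a retinoic acid receptor, 618 and 2298 bp. In the myeloid factor list 6 genes had a region longer in BN1, as many as had one longer in control, and Elf1 had both kinds. At gene ends alone the counts were 5 of 22 for coregulators (22.7%) and 2 of 16 for myeloid factors (12.5%). The share of all genes with a shared region at an end was 14.3%, so myeloid factors fell below it. Myc had 1808 bp in BN1 and 4443 bp in control, the single such gene among 7 stem and self-renewal genes with a shared region.

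Lists of basic functions had shares up to 21.1%, beside the 17.8% of all genes. The mTOR list had 4 of 19 (Slc7a5, Rptor, Eif4ebp1 and Sesn2), the cell cycle list 4 of 21 (Cdk6, E2f1, Ccnd2 and Cdk4) and the proteasome list 3 of 19 (Psmc4, Psmc2 and Psmd2). Ribosomal proteins had 2 of 20, and leukaemia chromatin regulators 2 of 20 (Dnmt3a, with 2086 bp in BN1 and 5196 bp in control, and Idh1). Lists of other blood lineages held few genes with a shared region. Neutrophil genes had 1 of 3 (Mmp9), erythroid genes 1 of 8 (Bcl2l1), megakaryocyte genes 1 of 6 (Plek) and B lymphoid genes 1 of 9 (Il7r), with 4 of the 9 longer in BN1. The Hox (2 genes), T and NK (1), MHC class II (6) and other tissue (1) lists had none, and no gene of the mast cell list had a shared region.

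The start windows of these regions were somewhat poorer in CpG than those of balanced regions. The ratio of observed to expected CpG had a median of 0.743 over 941 starts in regions longer in control (quartiles 0.564 and 0.881), against 0.843 over 6561 starts in balanced regions and 0.567 over all 21263 starts. It was under 0.6 in 28.2% (25.3 to 31.2) of starts in regions longer in control and in 25.7% (20.1 to 31.9) of 222 starts in regions longer in BN1, against 14.3% (13.5 to 15.2) in balanced regions. Within the regions longer in control it was under 0.6 in 35.3% of the 417 starts with no BN1 peak over them, against 22.5% of the 524 with one. Median GC content was 60.7% in regions longer in control and 62.7% in balanced ones.

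Fixed motifs, none of which contains another, were searched on both strands of these windows, and a match is a description of letters only. CACGTG was present in 12.1% of starts in regions longer in control, 10.7% of those in balanced regions and 7.84% of all. GAGGAAGT, a form of the PU.1 site, was present in 4.78% of starts in regions longer in control, 3.2% of those in balanced regions and 3.13% of all. CACATG, a second E-box bound by MiT/TFE factors, was present in 8.93% of starts in regions longer in control, 6.31% in balanced regions and 11.5% of all. The GC box GGGCGG was present in 64.6% of starts in regions longer in control, 70.6% in balanced regions and 46.2% of all, and TGACGTCA, the cAMP response element, in 2.87%, 4.34% and 2.23%. The next values keep that sequence of sets. TGACTCA (AP-1) was present in 3.19%, 2.77% and 4.66%, TATAAA in 6.16%, 5.38% and 12.6%, CCAAT (NF-Y) in 36.6%, 37.3% and 38.2%, and TGCGGT (Runx) in 10.6%, 10.4% and 7.44%. AGATAA, the motif of GATA factors, was present in 5.21%, 4.97% and 9.65%, the palindromic NRF1 motif in 2.23%, 2.68% and 1.33%, and TTGCGCAA or TTGCATAA (C/EBP) in 0.850%, 0.884% and 1.01%. Except for the GC box, shares in regions longer in control and in balanced regions differed by less than 3 percentage points. The starts with CACGTG included those of Ctsd, Ctsl, Plin2 and Abca1 shown above.

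Every chromosome with more than 4 shared regions contributed. The share of shared regions that were longer in control ran from 10.2% on chromosome X (27 of 266) and 13.7% on chromosome 13 (63 of 460) to 27.4% on chromosome 6 (154 of 562), and none of the 4 shared regions on chromosome Y met the rule.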

How the data were processed

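H3K27ac was profiled in 1 BN1 and 1 control ChIP library, and the 2 input libraries were not analysed here. What was deposited is 1 headerless narrowPeak file per ChIP library. Per the submitters' processing notes, MACS3 3.0.1, Bowtie2 2.5.4, deepTools 3.5.1 and Picard 3.2.0 were used with mm10 (GRCm38), without their roles. The sources used here do not state the calling threshold, the use of input or any pooling. For every peak the authors deposited a fold enrichment, which is a linear ratio, a p-value and a q-value on the −log10 scale, and a score that was left unused. Deposited −log10 q values began at 1.30 for BN1 and 1.32 for control. Depth is unknown.

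Peaks on placed chromosomes (8 BN1 and 28 control peaks lay elsewhere) were merged at distance 0, with the same result as bedtools 2.31.1, and the classing was tested on simulated peaks. Both ends of 21887 protein-coding genes were read from RefSeq (GRCm38.p6). Starts, strand and start windows were read from 21263 RefSeq windows of 17492 of these genes, none of them on chromosome 18. No p-value was computed. The regions and gene lists were chosen with earlier results of these data known. The rule for named genes took the 15 largest differences, the 10 smallest BN1 percentages at 4000 bp or more of control length, up to 4 genes per list, 3 regions on each side of the threshold and the 5 tallest per list. Further genes were named after their values were seen. Values of some listed genes and of 1 list are not reported here. Intervals are exact (Clopper-Pearson, 95%) and cover counting error only. Python 3.11.15, numpy 2.4.6, pandas 2.3.3, scipy 1.17.1 and matplotlib 3.10.9 were used.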

Additional observations from a re-analysis of the deposited data

How the results depend on the processing

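No paired analysis was possible because each group has 1 ChIP library, and for the same reason no replicate could be left out. Depth and enrichment of the libraries are not given by the lists, and their part in the lengths was not tested. The number of regions stayed within 1.5 times of 2008 with a −log10 q cutoff of 5, lists of equal length, merging at 500 or 2000 bp, at least 100 bp in both lists, and numbered chromosomes and X only. It was 1021 with a −log10 q cutoff of 10, 836 with lengths as shares of covered length, 3452 at a length ratio of 1.5 and 969 at a ratio of 3. As a percentage of shared regions it was 16.1% and 13.2% with −log10 q cutoffs of 5 and 10, 19.0% with lists of equal length, 20.2% and 21.2% with merging at 500 and 2000 bp, 31.1% and 8.72% at ratios of 1.5 and 3, and 7.53% as shares of covered length.

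The share at a gene end was 56.1% and 65.3% with −log10 q cutoffs of 5 and 10, 57.1% and 41.8% at ratios of 1.5 and 3, 40.2% as shares of covered length, 55.1% with merging at 2000 bp and 55.5% with a window of 2500 bp. BN1 length was 31.1% and 32.9% of control length with −log10 q cutoffs of 5 and 10, 29.7% with lists of equal length, 28.6% and 27.8% with merging at 500 and 2000 bp, 40.2% and 20.3% at ratios of 1.5 and 3, 18.7% as shares of covered length and 29.8% with at least 100 bp in both lists. The median control fold enrichment was 12.7 and 14.5 with −log10 q cutoffs of 5 and 10, 12.1 as shares of covered length and 12.4 with merging at 2000 bp. Regions with 2 or more BN1 peaks were 7.95% and 4.11% with −log10 q cutoffs of 5 and 10, 9.39% at a ratio of 3, 9.21% as shares of covered length, and 14.8% and 18.0% with merging at 500 and 2000 bp. Taking lengths as shares of covered length divides each list by a constant, so it amounts to a ratio somewhat above 3 on the same lengths. Apart from that setting, fewer peaks, wider merging or another ratio, which act by construction, the cause was not tested.

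Counts of the monocyte and macrophage, lysosome and lipid handling lists were also taken under settings chosen after seeing the data. The other lists were not run with the cutoffs, the peak lists of equal length or the shares of covered length. Monocyte and macrophage genes numbered 7 of 14 and 4 of 11 with −log10 q cutoffs of 5 and 10, and 5 of 17 as shares of covered length. Lysosome genes numbered 5 of 19 as shares of covered length. Lipid handling genes numbered 5 of 11 and 3 of 10 with −log10 q cutoffs of 5 and 10, 4 of 13 as shares of covered length and 5 of 11 at gene ends. The share of all genes with such a region was 15.8%, 13.2%, 7.0% and 14.3% under these 4 settings. With peak lists of equal length that share was 18.0%. The counts were then 10 of 16 monocyte and macrophage, 9 of 19 lysosome and 8 of 12 lipid handling genes.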
